A study of Mus musculus with 16 samples.

Results

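The Ifi200 family, also called the HIN-200 or PYHIN family, is a group of interferon-inducible genes that lie side by side on mouse chromosome 1. The members described here are Ifi202b, Ifi203, Ifi204, Ifi205, Mnda, Mndal, Aim2 and Pyhin1, 8 genes of 34650 gene names on the array. A probe was taken when the scanner file gave one of these names, which found 14 of 55681 probes for 7 of the 8 genes. No probe carried the name Ifi205. The members were selected on their difference in log2 signal between the groups, KO chimeras against controls, so the values of that comparison are a description. No p-value is given for them, and whether the fit across all probes called a member is stated only as a description beside the share called over the array.

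The study asked what losing adrenergic receptors on marrow-derived cells does to marrow, brain and colon, and the arrays described here measured total RNA of bone marrow from 16 mice. The KO chimeras, 8 mice, were C57BL/6J mice that were lethally irradiated (950 rad) and then given whole bone marrow of the Adrb1tm1BkkAdrb2tm1Bkk/J strain, which lacks both beta-adrenergic receptor genes constitutively, by 1 injection behind the eye. The 8 controls are labelled as control mice of irradiated C57BL/6J stock, and their labels name no marrow donor. All 16 labels carry the same treatment text, with a donor to C57BL/6J ratio of 1:4, whose meaning for the controls is not given, and a recovery of 2 to 3 months. Age was not given in the sources used here. Marrow of the KO chimeras can therefore hold donor cells and remaining host cells, and the donor strain, the transplant and the loss of the receptors cannot be told apart in this comparison.

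Proteins of this family combine a pyrin domain, which binds other pyrin domains, with 1 or more HIN domains, which bind double-stranded DNA, although some members lack one of these parts. Aim2 is the cytosolic DNA sensor that recruits the adaptor Pycard and through it activates caspase-1, Ifi204 is a mouse relative of human IFI16, and Ifi202b lacks the pyrin domain and is known to oppose Aim2 signalling. Ifi202b is also known for differing between inbred mouse strains. Interferon raises transcription of these genes, and myeloid and lymphoid marrow cells express several of them.

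The array carries gene names that have since changed. The array's Pyhin1 is Ifi209 in the current RefSeq table and its Mnda is Ifi211. The accessions of the single Mnda probe also include those of Ifi205, so its value is uncertain between these near-identical genes. Among the members, the accessions of all 4 Ifi203 probes and of the Ifi204 probe A_55_P2066578 matched no RefSeq gene. The names of these probes therefore rest on the array's own labels. The first 30 of each probe's 60 bases are shown, because the results differ between probes of 1 gene. Positions are those of the whole probe in the array's own build, mm9, on chromosome 1, and exon or UTR annotation for that build was not used here.
Aim2 A_55_P2080130, chr1:175396036-175396095, plus strand: ctaagaaatcagtgatattggggtatgtga
Pyhin1 A_55_P2036357, chr1:175572633-175572691, plus strand: aatgtacccaaagaaccttctgaggaaaaa
Pyhin1 A_55_P2035509, chr1:175576265-175576324, plus strand: ctgataaaagcaagctctttggtttaggaa
Pyhin1 A_55_P1974178, chr1:175576564-175576623, plus strand: atgtggaggctgaaatgcaggctgaatgca
Ifi204 A_55_P2066578, chr1:175677552-175677611, minus strand: gtagaagcctattgaaatatcagtcctata
Ifi204 A_55_P1975560, chr1:175677647-175677706, minus strand: agtcgggagaacctctctggaaccatactt
Mndal A_65_P17218, chr1:175787550-175787609, minus strand: agcatcaactgtcctgtcaagcacaaaaaa
Mnda A_55_P1962918, chr1:175826600-175826659, minus strand: gtcacctctaaatgacagctttagtagtat
Ifi203 A_55_P1988202, chr1:175850536-175850595, minus strand: cacaattgctttctgatctgtactgacagt
Ifi203 A_55_P2004507, chr1:175851818-175851877, minus strand: aatgggttcattttgcccatgtttgaatgg
Ifi203 A_55_P1998843, chr1:175852372-175852430, minus strand: atttctgtaaagcagtgtgcctttggcact
Ifi203 A_55_P1966731, chr1:175854206-175854265, minus strand: agtgagaggcatgagtgcatttgctatgga
Ifi202b A_55_P2032167, chr1:175892789-175892848, minus strand: ctgctcaaatataatacatacaacatccag
Ifi202b A_51_P151182, chr1:175892953-175893982, minus strand: attgacctcaaatgcagatgagtggtttct

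The 14 probes spanned 497.947 kb, from Aim2 at one end to Ifi202b at the other, and the related genes described below lie between them. Ifi202b's probe A_51_P151182 covers 1030 genomic bases with 60 bases of sequence, so its 60 bases are not one contiguous stretch of the genome. Among the 27 probes of members and related genes no pair shared a run of 15 or more bases, and the longest shared run was 11 bases. Probes of different names can still report the same transcript. The Pyhin1 probe A_55_P2036357 lists 2 transcripts that the probe of the related gene BC094916 lists as well, so these 2 genes are not fully separated here.

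The deposited signals were read as log2 of the processed signal over each array's 75th percentile, so 0 marks a spot as bright as that percentile. That percentile lay between 231 and 558 intensity units in controls and between 127 and 545 in KO chimeras, and no spot was saturated. Arrays of 1 group correlated at r = 0.984 to 0.993 in controls and 0.972 to 0.993 in KO chimeras. Both groups shared 5 of the 6 slides, and each of the 2 scan days covered 4 controls and 4 KO chimeras. Levels of different probes are not comparable on an array, so members are compared only with themselves. In bulk marrow, fewer cells of a type and less RNA per cell cannot be told apart. The 8 mice of a group are labelled as separate animals.

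Beta-receptor loss itself could not be checked fully. Of the 2 probes for Adrb1, one of the deleted receptors, A_51_P203827 had a mean of −2.49 ± 0.09 (SD, n = 8) in controls and −2.49 ± 0.27 in KO chimeras. The dimmer probe A_52_P322181 was −4.39 ± 0.52 in controls and −3.44 ± 0.74 in KO chimeras, above background on 6 and 7 of 8 arrays. No source used here says whether either probe lies in the deleted part, and they therefore check nothing.

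Across the array, 32689 probes passed the filter (well above background on at least 6 of 8 arrays of either group), and limma called 23.5% of them different between groups at a Benjamini-Hochberg adjusted p under 0.05, 11.4% higher and 12.2% lower in KO chimeras. All 14 member probes passed. Of these, 4 were higher, 6 were lower and 4 were not called. In 6 member probes the groups did not overlap, 3 in each direction, against 6.34% of all tested probes (3.06% higher and 3.28% lower). The rule used this contrast, so these counts are given beside the background and nothing is read from them. The median difference was −0.26 over the 14 probes and −0.01 over all probes. Leaving out the mice one at a time gave 10 or 11 called member probes.

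**Figure D1:**
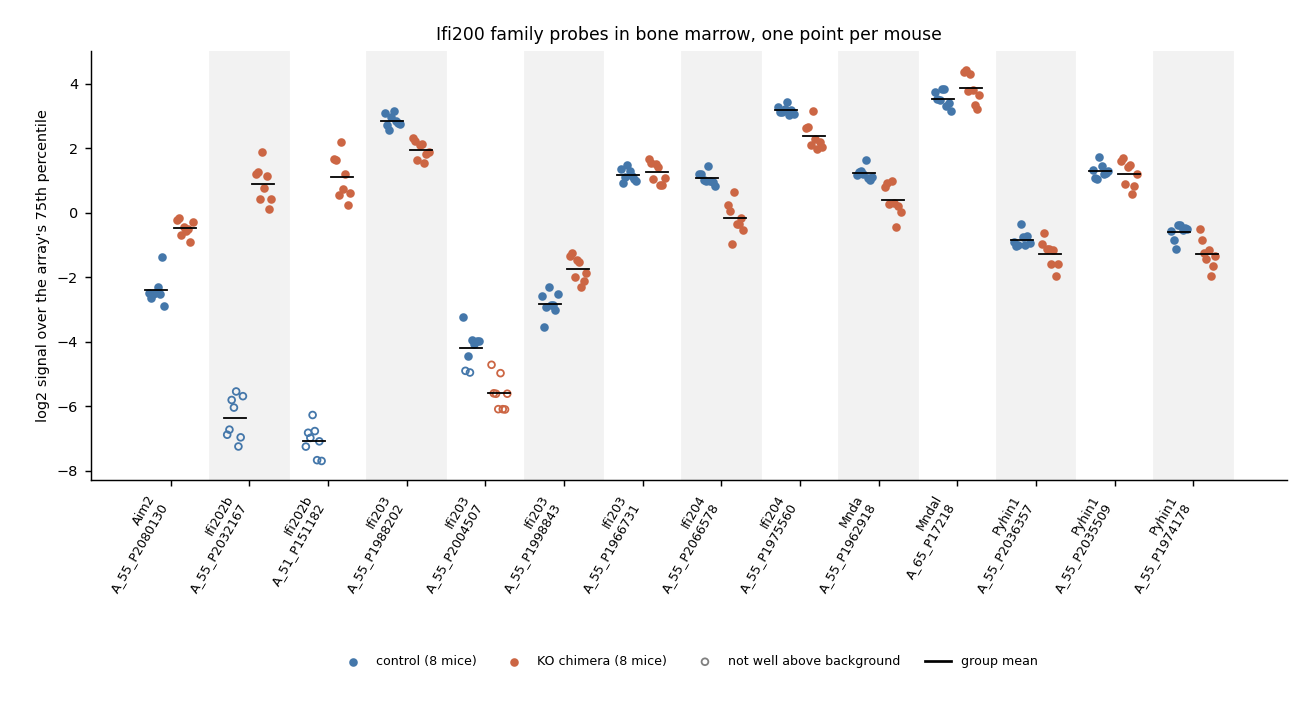
Level of each of the 14 member probes in each mouse, as log2 signal over the array's 75th percentile, with 8 controls in blue and 8 KO chimeras in orange, the group mean as a black line and hollow points for signals not well above background. Ifi202b is hollow in all 8 controls and filled in all 8 KO chimeras, Aim2 separates the groups upward, and Ifi204 probe A_55_P2066578, Ifi203 probe A_55_P1988202 and Mnda separate them downward.

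Ifi202b, the member without a pyrin domain, was the member with the greatest difference. On probe A_51_P151182 the KO chimeras ran from 0.24 to 2.19 with a median of 0.96, and all 8 were well above background. Controls ran from −7.69 to −6.27 with a median of −7.03, and none of the 8 was well above background. The groups lay far apart, with every control not well above background and every KO chimera above the 75th percentile of its array. The measured difference was 8.16 ± 0.27 (log2, ± SE of the fit). Because the control level is only a bound, the fold is given against the lowest signal that the arrays measured above background (on each array, the higher of that signal and the probe's own), which makes Ifi202b at least 69.4-fold higher in KO chimeras.

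Probe A_55_P2032167, the second for Ifi202b, ran from 0.10 to 1.87 (median 0.95) in KO chimeras and from −7.25 to −5.54 (median −6.38) in controls. Again all 8 KO chimeras and none of the controls were well above background. The measured difference was 7.26 ± 0.29, and the bound was at least 60.4-fold. Both probes therefore gave the same picture from different stretches of the gene. Within the 5 slides that held both groups the difference ran from 7.44 to 8.88 on A_51_P151182 and from 6.67 to 7.45 on A_55_P2032167. With normexp background correction, which adds an offset to all signals, the differences were 3.72 and 3.35.

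Aim2, the cytosolic DNA sensor, lies at the opposite end of the cluster and was also higher in KO chimeras. Its single probe ran from −0.90 to −0.16 with a median of −0.46 in KO chimeras. In controls it ran from −2.90 to −1.36 with a median of −2.50. All 16 arrays were well above background, and the lowest KO chimera was above the highest control. The difference was 1.94 ± 0.17, a 3.83-fold change. It was between 1.51 and 2.52 within each of the 5 slides, and 1.22 with normexp background correction. Control mouse 7, at −1.36, stood apart from the other controls, of which the next highest was −2.32.

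Ifi204, the relative of human IFI16, was lower in KO chimeras on both of its probes, which lie 35 bases apart. On A_55_P2066578 controls ran from 0.82 to 1.44 (median 0.99) and KO chimeras from −0.98 to 0.65 (median −0.25). No KO chimera reached the lowest control, and the difference was −1.25 ± 0.18. On A_55_P1975560 controls ran from 3.03 to 3.43 (median 3.16) and KO chimeras from 1.96 to 3.14 (median 2.24). Here 1 KO chimera, mouse 4, reached the range of the controls, and the difference was −0.81 ± 0.15. KO chimera mouse 4 was the highest of its group on both probes. Its group spread was wider, with SDs of 0.50 and 0.40 against 0.20 and 0.13 in controls.

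Mnda, the myeloid nuclear differentiation antigen of the array's naming, had 1 probe. Controls ran from 1.02 to 1.63 with a median of 1.19. KO chimeras ran from −0.44 to 0.98 with a median of 0.27. The groups did not overlap, although the highest KO chimera and the lowest control differed by little, and the difference was −0.84 ± 0.18. Mndal, the Mnda-like gene next to it, did not follow: its probe ran from 3.14 to 3.84 (median 3.51) in controls and from 3.22 to 4.41 (median 3.79) in KO chimeras. The Mndal groups overlapped over most of their range, and the difference of 0.32 ± 0.18 was not called. Neither member changed direction under any alternative run.

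Ifi203, a pyrin and HIN protein with several transcript forms, had 4 probes by the array's naming, which did not move alike. None of them matched a RefSeq gene by its accessions. The brightest probe, A_55_P1988202, ran from 2.55 to 3.16 (median 2.80) in controls and from 1.55 to 2.31 (median 1.98) in KO chimeras. Its groups did not overlap, and the difference was −0.90 ± 0.12. A_55_P1998843 lies 1.8 kb away and went the opposite way, from −3.54 to −2.30 (median −2.86) in controls and from −2.32 to −1.24 (median −1.70) in KO chimeras. Only the extremes of the groups touched, and the difference was 1.09 ± 0.18, or 0.49 with normexp background correction. A_55_P1966731 did not separate the groups, with 0.90 to 1.49 in controls, 0.86 to 1.67 in KO chimeras and a difference of 0.08 ± 0.13.

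The fourth Ifi203 probe, A_55_P2004507, was dim. It was well above background in 6 of 8 controls and in none of the KO chimeras, with measured means of −4.18 and −5.60. Against the lowest signal above background, Ifi203 was at least 1.28-fold lower in KO chimeras on this probe. Ifi203 as a whole thus had 2 probes lower, 1 higher and 1 not called, and no single direction can be given for the gene. The reason that its probes disagreed was not tested.

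Pyhin1, the array's name for Ifi209, had 3 probes with small differences. A_55_P1974178 ran from −1.13 to −0.37 (median −0.52) in controls and from −1.97 to −0.50 (median −1.29) in KO chimeras, a difference of −0.67 ± 0.18 with overlapping groups. A_55_P2036357 differed by −0.43 ± 0.16 and was not called, and A_55_P2035509, the brightest, differed by −0.09 ± 0.16 and was not called either. The 3 probes had the same sign, but the last one turned to 0.003 in 1 of 26 alternative fits. Within scan day 2 it was at 0.06. The order of the members by difference, taking each one's brightest probe, ran from Ifi202b and Aim2 at the top through Mndal and Pyhin1, which were not called, to Ifi204, Mnda and Ifi203 at the bottom, whose differences of −0.81, −0.84 and −0.90 lay within 1 SE of each other.

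Related genes of the same cluster give the local setting. These 6 names, all of which lie between Aim2 and Ifi202b, had 13 probes, of which 11 passed the filter. None was called higher, 8 were called lower and 3 were not called, against 11.4% higher and 12.2% lower over all probes. In all 8 the groups did not overlap, while 3.28% of all tested probes were lower without overlap. Their median difference was −2.0. They were chosen with earlier results known and come from the same contrast, so the count is a description.

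The related genes with the greatest differences are close relatives of each other. LOC102639543, the gene ID of Ifi206, ran from −0.59 to 0.56 in controls and from −2.79 to −2.25 in KO chimeras on A_55_P2004007, a difference of −2.54 ± 0.14. Its probe A_55_P1972582 differed by −3.05 ± 0.22, and 5 of 8 KO chimeras were well above background there. On these 2 probes every KO chimera lay under every control. The third, A_55_P1970612, was well above background on 1 of 16 arrays and left out by the filter.

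Pydc3, now Ifi208, differed by −2.99 ± 0.31 on A_55_P2036627 and by −2.0 ± 0.15 on A_55_P2181222. Its probe A_66_P128761 was well above background in all controls and in none of the KO chimeras, at least 3.09-fold lower, while A_55_P2001233 differed by only −0.52 ± 0.09 although its groups did not overlap. The last probe lists a transcript that the Pydc4 probe A_55_P2039230 also lists. The array names that probe Pydc4, the former symbol of Ifi213, but its accessions matched no RefSeq gene, and it differed by −2.39 ± 0.31. The Pydc4 probe whose accession is that of Ifi213, A_52_P483799, was well above background on none of the 16 arrays. It lists a transcript that the Pydc3 probe A_55_P2036627 also lists, so Pydc3 and Ifi213 are not fully separated there. Ifi213 thus has no measured difference of its own here. All 4 Pydc3 probes and Pydc4 A_55_P2039230 were lower, with sizes that varied with the probe. With normexp background correction the Pydc4 difference was −0.66 and the Pydc3 difference on A_66_P128761 was −0.60.

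AI607873, now Ifi207, differed by −1.10 ± 0.17 on A_55_P2081105 without overlap and by −0.43 ± 0.21, not called, on A_51_P325281. BC094916, now Ifi214, at 0.32 ± 0.23, and the pseudogene Gm16340 (Ifi203-ps), at −0.04 ± 0.16, were not called. At the 2 ends of the cluster Aim2 and Ifi202b were higher. Between them, the measured probes of Ifi206, Pydc4, Pydc3, Ifi204 and Mnda were lower, those of Ifi203, Ifi207 and Pyhin1 did not all give the same call, and those of Mndal, Ifi214 and the pseudogene were not called. The plot of differences along the cluster gives every probe that passed the filter in its place.

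**Figure D2:**
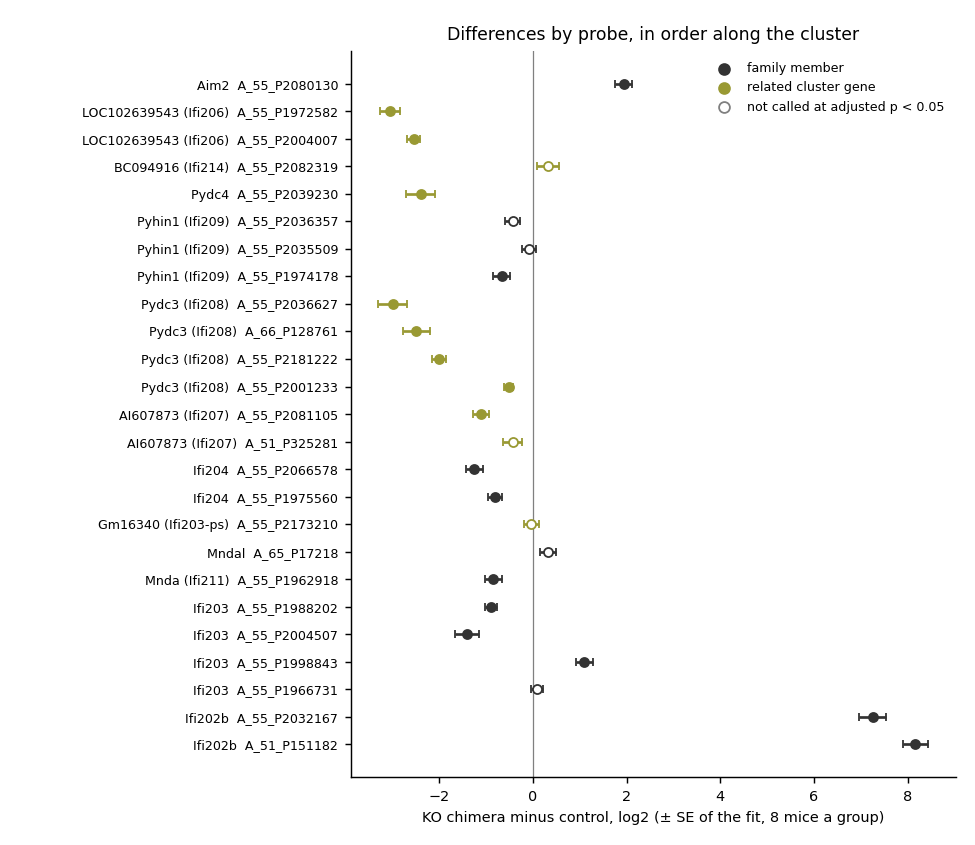
KO chimera minus control (log2, ± SE of the fit, 8 mice a group) for the 14 member probes in black and the 11 measured probes of related genes in olive, from Aim2 at the top to Ifi202b at the bottom in their order along chromosome 1, with hollow points for probes not called. Aim2 at 1.94 and Ifi202b at 7.26 and 8.16 lie right of 0, while 8 of the 11 related probes are filled and lie left of it.

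Further probes inside the cluster are mostly tiles of noncoding transcripts. Of 29 such probes, 26 of them tiles, 24 passed the filter, none was called higher, 12 were called lower and 12 were not called, against 11.4% higher and 12.2% lower over all probes. One of the 12 lower probes belongs to Gm7897 and the others are tiles. The tiles of the transcript chr1:175653557-175671940 on the minus strand, which overlaps Ifi207, were lower on all 3 probes, by −1.62 to −0.57. Of the 5 measured tiles of chr1:175654606-175672031 on the minus strand, 4 were lower. On the plus strand of the same interval none of 3 measured tiles was called, with differences of −0.81 to −0.05. Overlapping genes share these intervals, so a tile cannot be given to 1 transcript.

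Other genes were counted in the cluster and within 2 Mb on either side of it, with 1 probe each. Of 51 genes outside the cluster, 10 were called higher and 8 lower in KO chimeras, which is 35.3%. The share called was 22.3% of the 1343 genes measured on chromosome 1 outside the family and 22.3% of all 23061 genes. Inside the cluster were 8 further names, mostly the noncoding transcripts above, and 4 of these names were called lower. The tile A_30_P01019537, called lower, covers the same bases as the Ifi207 probe A_55_P2081105, so these names are not all separate from the cluster's own genes. The side towards Aim2 had 14 of 35 genes called, 7 in each direction, and the side towards Ifi202b had 4 of 16, 3 higher and 1 lower. Itln1, an intestinal lectin, lies 1948 kb before the cluster. It was well above background in no control and in all 8 KO chimeras, where it ran from 0.06 to 1.05. Its control level is only a bound, so it was at least 49.7-fold higher in KO chimeras, with a measured difference of 7.13. Counting the names inside the cluster, which in part repeat its own genes, 22 of 59 were called, and 13 and 43 over windows of 1 Mb and 5 Mb.

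Between Itln1 and the cluster, Dusp23, a phosphatase, was lower by −1.76 ± 0.12 and Slamf8, a receptor of myeloid cells, by −1.22 ± 0.16. Slamf6, a lymphocyte receptor, was higher by 0.80 ± 0.22, and Kcnj10, a potassium channel, lower by −0.92 ± 0.26. The unnamed transcript ENSMUST00000043170 beside Itln1 was higher by 2.88 ± 0.18, and Ccdc19 was higher by 1.18 ± 0.30. On the borders of the cluster, Cadm3, an adhesion molecule 130 kb before Aim2, was at −0.39 ± 0.15 and not called. LOC102641688, 37.7 kb after Ifi202b, was lower by −0.79 ± 0.18, and the olfactory receptor gene Olfr433 behind it was higher by 1.08 ± 0.20. Inside the cluster, Gm7897 was well above background in 7 controls and in no KO chimera, at least 1.39-fold lower. Ifi202b and Itln1 were thus the ones that passed from below background in every control to above it in every KO chimera among the genes named here.

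**Figure D3:**
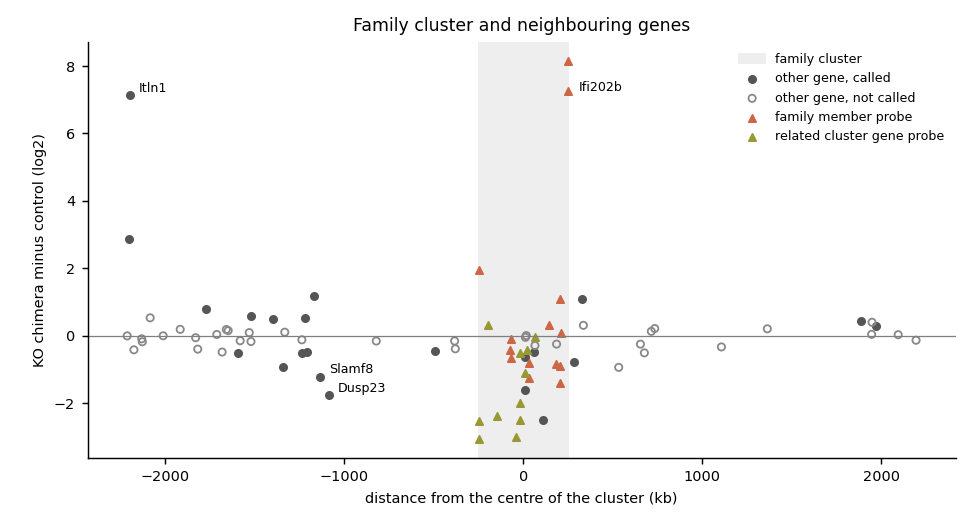
KO chimera minus control (log2) against distance from the centre of the family cluster in kb, for member probes (orange triangles), related cluster probes (olive triangles) and other genes (circles, filled where called), with the cluster shaded. Ifi202b at the right edge of the cluster and Itln1 at −2197 kb stand above 7, and the other circles lie between −2.49 and 2.88.

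The members were then compared across mice of 1 group, a measure that the choice of members did not use. Taking the brightest probe of the 6 members above background on all arrays, 15 pairs were tested in each group, 30 tests in all. In KO chimeras all 15 correlations were positive, with a median Pearson r of 0.80 and a range of 0.39 to 0.96. In controls 14 of 15 were positive, with a median of 0.48 and a range of −0.19 to 0.80. The control pairs with Aim2 had r of −0.19 to 0.31, while their rank correlations (Spearman's rho) ran from 0.02 to 0.76. Control mouse 7 stood apart for Aim2, and its part in these values and in the control median was not tested. Whether the groups differ in their correlations was not tested.

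Passing the adjustment over all 30 tests, 2 pairs correlated in KO chimeras and none in controls. Ifi203 and Pyhin1 had r = 0.96 and Spearman's rho = 0.95 (exact permutation test, two-sided, n = 8, p = 0.000397, adjusted p = 0.0119), and r was 0.92 without the 2 mice farthest from the Ifi203 median. Ifi204 and Mnda had r = 0.90 and rho = 0.98 (exact permutation test, n = 8, p = 0.00151, adjusted p = 0.0227), and r was 0.91 without those farthest from the Ifi204 median. Among 22291 other genes, 0.0135% correlated with Ifi203 in KO chimeras as closely as Pyhin1 did. For Ifi204 the share as close as Mnda was 0.332%. In controls the same pairs had r = 0.67 and 0.70, neither of which passed. Under normexp background correction 7 pairs passed in place of 2.

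The members were set beside array brightness, and all 12 correlations were negative. In KO chimeras the correlation of a member with the log2 of the array's 75th percentile ran from −0.84 (Mndal) to −0.41 (Ifi203), and in controls from −0.59 to −0.03, 12 values in all given without a test. KO chimera mice 1, 2 and 4, whose percentile was 232, 127 and 193, were high for Ifi204 and Mnda, but mouse 3, at 195, was not (2.09 and 0.26). Mice 6, 7 and 8, with 407, 545 and 468, were low for Mndal. The part of brightness in the correlations was not tested. Each scan day held 4 mice of a group, too few for a correlation within it.

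**Figure D4:**
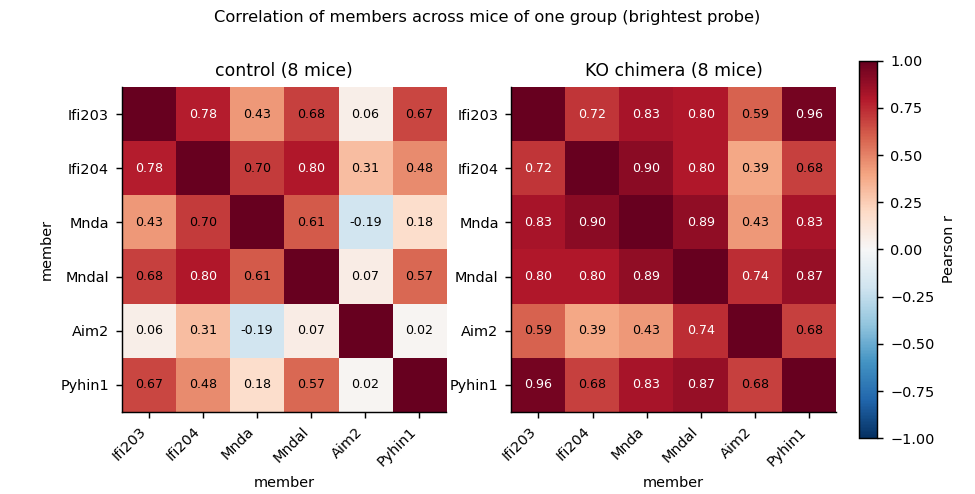
Pearson r between members across the 8 mice of each group, with controls on the left and KO chimeras on the right and red for positive values. In KO chimeras every pair is positive, with 0.96 for Ifi203 and Pyhin1. Aim2 in controls, where mouse 7 stood apart, lies between −0.19 and 0.31 with each other member. Spearman's rho for the same pairs ran from 0.02 to 0.76.

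Outside the family, the genes whose pattern was most like a member were named by the lower of the 2 within-group r values over 22279 genes, 8 mice a group. For Ifi204 these were noncoding transcripts of the cluster itself, chr1:175654606-175672031 (0.93) and chr1:175705225-175717250 (0.90), both on the minus strand. On that strand these intervals hold probes of the related genes Ifi207 and Gm16340, so they are not shown to lie outside the family. For Mndal they were Il1f6 (0.95), a cytokine of the interleukin-1 family, and L3mbtl3 (0.91). Ifi203 was closest to Dgkd (0.87) and Evl (0.86), Mnda to Zfp960 (0.84) and Zfp622 (0.81), Pyhin1 to Il21r (0.90) and Rhoq (0.89), and Aim2 to Commd4 (0.83). Selecting the highest of so many values raises them, and they carry no test.

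Interferon acts on promoters through the response element ISRE and the site GAS, so both were searched in the 250 bases before each RefSeq start (build GRCm38.p6). The ISRE core was spelled GAAA, any 2 bases, GAAA, and GAS was spelled TTCNNNGAA, on both strands, and matches of one were not kept from overlapping matches of the other. Promoters were in the table for 7 members and 5 related genes, and Ifi204 was not among them. An ISRE core was in at least 1 promoter of 4 members, Ifi203, Ifi205, Mnda and Mndal, and of all 5 related genes, while 2.98% of 32851 promoters held one. GAS was in 1 member, Ifi202b, against 7.02% of all promoters. The stretches that hold the match next to the family's shared sequence are shown, with the ISRE core in capitals.
Ifi203, chr1:173942508-173942537, minus strand: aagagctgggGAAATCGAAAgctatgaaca
Mndal, chr1:173880204-173880233, minus strand: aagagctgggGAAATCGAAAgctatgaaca
Mnda (Ifi211), chr1:173913064-173913093, minus strand: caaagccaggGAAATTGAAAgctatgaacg
Ifi205, chr1:174031870-174031899, minus strand: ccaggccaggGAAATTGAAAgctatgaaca
AI607873 (Ifi207), chr1:173741831-173741860, minus strand: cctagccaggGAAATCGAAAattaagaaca
Pydc3 (Ifi208), chr1:173673597-173673626, plus strand: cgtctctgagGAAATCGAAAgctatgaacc
Ifi213 (former symbol Pydc4), chr1:173599326-173599355, minus strand: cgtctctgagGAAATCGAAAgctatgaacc
LOC102639543 (Ifi206), chr1:173491339-173491368, minus strand: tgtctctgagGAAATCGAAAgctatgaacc
BC094916 (Ifi214), chr1:173536017-173536046, minus strand: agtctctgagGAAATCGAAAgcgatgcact

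The match began between 35 and 134 bases before the start. The 10 letters GAAATCGAAA stood in 7 of these genes and in 13 of all 32851 promoters, 0.0396%, and GAAATTGAAA stood in Mnda and Ifi205 and in 36 of all. These genes are copies of one another, so the shared letters are not separate observations. The genes with the core were lower on their measured probes (Mnda, Ifi206, Ifi208), mixed between probes (Ifi203, Ifi207) or not called (Mndal, Ifi214), and Ifi213 and Ifi205 have no measured value of their own. In the windows of Ifi202b, Aim2 and Pyhin1 these letters did not occur, which says nothing about the factors that bind there.

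Other genes of the pathway came from 4 lists of interferon and DNA-sensing genes, chosen with earlier results known. Counting each gene once, 9 of 78 measured genes rose and 19 fell in KO chimeras at an adjusted p under 0.05, with a background of 10.2% higher and 12.1% lower among 23061 genes. The interferon response list, of genes that interferon induces, had 1 higher and 13 lower of 28, with a median difference of −0.38 against −0.02 for all genes. Oasl2, of the oligoadenylate synthetase family, fell by 3.79 ± 0.33 on the log2 scale (limma, adjusted p = 1.91e-07). Xaf1, an interferon-induced gene linked to apoptosis, fell by 1.40 ± 0.19 on its brighter probe and was higher by 3.83 ± 0.20 on the other. Ifit3, an interferon-induced translation regulator, fell by 1.61 ± 0.23 (adjusted p = 6.26e-05). Cxcl10, an interferon-induced chemokine, rose by 0.85 ± 0.23 (limma, adjusted p = 0.0117).

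Of 19 measured interferon receptors and signalling genes, 2 rose and 2 fell, which is 21.1% against 22.3% of all genes, with a median difference of 0.10. The receptor subunits Ifnar1 (0.16 ± 0.09) and Ifnar2 (0.10 ± 0.09) were not called on the probes used. Of the dimmer Ifnar1 probes, A_55_P2454784 was called higher (0.54 ± 0.12) and A_55_P2438722 was not called (0.37 ± 0.17). Usp18, which restrains interferon receptor signalling, fell by 0.87 ± 0.14 (limma, adjusted p = 0.000186), and Jak2, a receptor-associated kinase, fell by 0.49 ± 0.09. Tyk2, another receptor-associated kinase, rose by 0.53 ± 0.15.

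Partners of Aim2 in the inflammasome were measured directly. The adaptor Pycard was at 0.09 ± 0.11 and caspase-1 (Casp1) at 0.20 ± 0.13, and neither was called. Of 17 measured inflammasome genes, 4 rose and 2 fell, which is 35.3%. Nlrp1b, a sensor of pathogen proteases, rose by 3.52 ± 0.16, from a range of −3.48 to −2.80 in controls to −0.03 to 1.05 in KO chimeras (limma, adjusted p = 8.24e-11). Nlrc4, the sensor adaptor for bacterial flagellin, fell by 2.3 ± 0.15 (limma, adjusted p = 8.1e-09). The cytokine Il18 rose by 1.46 ± 0.17 (adjusted p = 7.12e-06).

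Cytosolic DNA sensing outside the family had 2 genes higher and 3 lower of 16, which is 31.2%. The helicase Dhx9 rose by 0.76 ± 0.15 (limma, adjusted p = 0.00126), the nucleic acid sensor Zbp1 fell by 0.73 ± 0.15 and the helicase Dhx36 fell by 0.38 ± 0.09. The DNA sensor cGAS (Mb21d1, −0.17 ± 0.09) and its adaptor STING (Tmem173, −0.09 ± 0.10) were not called. The other called genes of this list were Tbk1, higher by 0.38 ± 0.11, and Prkdc, lower by 0.26 ± 0.09. Aim2's adaptor Pycard, cGAS and STING were thus not called, while other genes of the list and Aim2 itself, 3.83-fold higher, were.

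**Figure D5:**
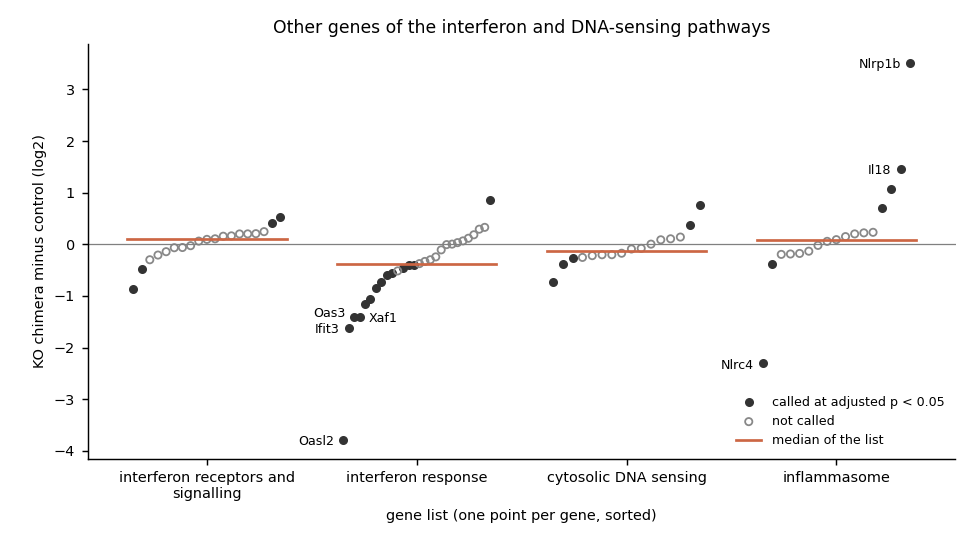
KO chimera minus control (log2) for each measured gene of the 4 pathway lists, sorted within a list, filled where called at an adjusted p under 0.05, with the list's median as an orange line. The interferon response list lies mostly under 0, with Oasl2 at −3.79 lowest, and Nlrp1b at 3.52 stands highest in the inflammasome list.

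Cell type markers were counted list by list, against 10.2% of all genes higher and 12.1% lower. Of 6 measured macrophage markers 4 fell, C1qa, C1qc, Cd5l and Vcam1, while C1qb and Emr1 were not called. Vcam1 was at −0.58 ± 0.16 on its brighter probe and at 0.24 ± 0.18, not called, on the other. The summed level of the 6, in multiples of each array's 75th percentile, ran from 10.4 to 18 in controls. In KO chimeras it ran from 6.62 to 11.6, so the sums overlapped. Of 5 monocyte markers 2 rose, Cd14 by 2.26 ± 0.13 and Ccr2 by 0.67 ± 0.20, with sums of 69.7 to 102 and 83.9 to 154. Cd8a fell among 5 T cell markers, by 1.42 ± 0.19 on its brighter probe, and was at −0.44 ± 0.24, not called, on the other. The T cell sums overlapped, at 21.2 to 30.02 in controls and 20.4 to 25.5 in KO chimeras. These sums cover the 7 mice of each group with a value for all 5 markers. The dendritic cell marker Clec9a fell and the NK cell marker Ncr1 rose, each 1 of 4 in its list, and 2 of 4 megakaryocyte markers fell. Another NK cell marker, Klrb1c, was not called on its brighter probe (−0.04 ± 0.17) but was called lower on the other (−2.47 ± 0.28). None of the 6 neutrophil, 5 B cell and 4 erythroid markers was called on its brightest probe, and the neutrophil sums overlapped (1897 to 2268 in controls, 1785 to 2814 in KO chimeras). A dimmer probe was called higher for the neutrophil markers Mpo (1.08 ± 0.17) and Camp (0.47 ± 0.15). The same held for the monocyte markers Csf1r (0.85 ± 0.21) and Cx3cr1 (0.84 ± 0.21). The part of these cell types in the members' differences was not tested.

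Scan day was tested as an interaction. The interaction of group and scan day was called for none of 32688 probes at an adjusted p under 0.05, with 749 probes and none of the 14 member probes at an unadjusted p under 0.05 (limma). Aim2 differed by 1.72 on the first day and 2.15 on the second, and Ifi204 on A_55_P2066578 by −1.25 and −1.26.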

How the data were processed

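Bone marrow RNA of 16 mice was labelled with Cy3 on 1-colour Agilent arrays, per the labels' protocols. The deposited scanner files hold each spot's processed signal as an intensity, made with Agilent Feature Extraction (10.1.1.1 per the file headers, 10.7 per the submitters' processing notes). A deposited table of log2 values by the authors served as an alternative. Groups came from the sample titles. Control and outlier-flagged spots were left out, spots of a probe averaged, and log2 intensity taken minus the log2 75th percentile. Probes well above background on at least 6 of 8 arrays of a group were fitted with limma 3.58.1 (R 4.3.3, lmFit and eBayes, Benjamini-Hochberg over all probes). Genes used their brightest kept probe. The fit was tested on simulated data: 17 of 50 changes of 0.5 (log2), 42 of 50 of 1, 38 of 50 of −1 and 49 of 50 of 2 were recovered over 31740 probes, with 8 false calls. Correlations used exact permutation tests. Members and lists were chosen with earlier results of these data known. Named genes were all member and related probes, up to 3 called genes a list by smallest p, called neighbours up to 12 by size with the nearest on each side, and the 2 most similar genes; receptors, partners and markers were added after their values were seen. Some items are not reported here. Array number limits the precision.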

Additional observations from a re-analysis of the deposited data

Results flagged for a closer look

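Among the 50 groups of 8 mice checked (25 probes of the family and its related genes in 2 groups), 4 held a mouse far from the other 7, measured as the gap to its nearest neighbour over the whole range of the group. Chance flags about 1 group in 20. All 4 were controls that read high. Control mouse 7 was at −1.36 for Aim2, where the next control was at −2.32. Control mouse 5 was at 1.63 for Mnda, next to 1.29. Control mouse 4 was at −0.35 for Pyhin1 on probe A_55_P2036357, next to −0.71. Control mouse 3 was at −1.75 for AI607873 on probe A_51_P325281, next to −2.45. Each was a different mouse. Leaving out each of the 16 mice in turn gave Aim2 differences of 1.86 to 2.09.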

How the results depend on the processing

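All 14 member probes kept their direction in every alternative that gave them a value, except Pyhin1 A_55_P2035509. That probe turned in 1 of 26 alternatives and also within scan day 2, at 0.06. Ifi202b and the dim Ifi203 probe have no value when only probes above background on all 16 arrays are kept. Normexp background correction shrank dim probes (Ifi202b 3.72 and 3.35, Aim2 1.22, Ifi203 A_55_P1998843 0.49) and gave 7 correlated member pairs in place of 2. Called neighbours numbered 22, and 13 and 43 with windows of 1 Mb and 5 Mb. Fits within each scan day, chosen after seeing the data and using 8 mice in place of 16, called 2453 probes, 1605 genes, 6 pathway genes and 8 neighbours on day 1, and 3459 probes, 2320 genes, 19 pathway genes and 15 neighbours on day 2, against 7696, 5140, 28 and 22 in all. Leaving out each mouse gave 6604 to 7947 probes, 4391 to 5328 genes, 24 to 32 pathway genes and 21 to 25 neighbours. With no filter, the median of all probes moved to 0.09. Same-numbered mice of the groups did not pair (correlations of −0.19 to 0.19, none best with its own number), and the replicate block called 7012 probes, 4726 genes, 27 pathway genes, 23 neighbours and 10 member probes. Signal over background limits Ifi202b in controls and Ifi203 A_55_P2004507 in KO chimeras to bounds.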

Other observations

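Probes of 1 gene also disagreed outside the cluster. Xaf1 was lower in KO chimeras on its brighter probe, A_55_P1966833, by −1.40 ± 0.19, and higher on A_55_P1966838 by 3.83 ± 0.20. Zbp1 was at −0.73 ± 0.15 on A_55_P1994042 and at −0.09 ± 0.20 on A_66_P139683. Both Nlrp1b probes were higher, by 3.52 ± 0.16 and 3.16 ± 0.24. The cause of the disagreement was not tested.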
